A study of Mus musculus with 6 samples.

Results

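The mouse mitochondrial genome encodes 37 RNAs, of which 13 are messenger RNAs for subunits of the respiratory chain and ATP synthase, 2 are ribosomal RNAs and 22 are transfer RNAs. Their levels were read from RNA-seq of cortex (primary somatosensory area, C57BL/6 mice at an age of 14 days) by taking every gene of the deposited table whose symbol begins with mt-. All 37 were found among 47794 genes. The members are defined by name, but the set was proposed with the group means and the difference of mt-Tp already known. Differences between the groups, and the p-values printed beside them, are therefore descriptions.

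The study compared 2 groups of 3 libraries. Control mice carried β-catenin alleles with loxP sites around exon 3 of Ctnnb1 and no Cre. Overexpression mice carried the same floxed exon 3 together with Nex-Cre, a recombinase expressed from the Neurod6 locus in excitatory neurons of the forebrain, so other cells of the cortex keep exon 3. Removal of exon 3 takes away the phosphorylation sites that mark β-catenin for degradation. In bulk cortex, fewer cells of a type and less RNA per cell cannot be told apart. The replicates were numbered in the labels but not tied to separate animals, so any spread between libraries may be technical in part. The deposited value of a gene is its mean scaled read count per group, and its values fit 3 libraries of whole reads, each divided by its own scaling factor. It carries no spread.

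Mitochondrial DNA is transcribed from both strands as long precursors that cover nearly the whole circle. Transfer RNAs lie between most messenger and ribosomal RNAs, and cutting them out releases the RNAs on either side. Most mitochondrial messenger RNAs receive short poly(A) tails, and the TruSeq RNA kit named in the labels enriches for poly(A). Nuclear genes supply the polymerase, the processing enzymes, the ribosomal proteins and most respiratory chain subunits. Neurons depend on this system for ATP at synapses.

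The targeted gene Ctnnb1 had a mean of 7574 in control and 6391 in overexpression cortex, and a gene-level value does not check the removal of exon 3. Cortical markers were present, with Slc17a7, a vesicular glutamate transporter of cortical excitatory neurons, at 31689 in control and 30449 in overexpression cortex. Of 30152 tested genes, 0 had an adjusted p under 0.05 by the authors' deposited table. Whole reads per library could be recovered from group means of low and moderate genes, and within each group these libraries are named A, B and C by falling scaling factor (0.982, 0.926 and 0.907 in control, 1.23, 1.06 and 0.966 in overexpression). None could be tied to a replicate number. Control A was the only control library with reads of the Y-linked gene Eif2s3y, chosen after its values were seen, at 1155 reads against 0 in B and C. The mean of Eif2s3y over both groups, 440, was above its control mean of 392, so the overexpression group had reads of it too. Which overexpression libraries held them was not recovered. Control B stood apart for Ttr, a choroid plexus gene, at 660 reads against 75 in A and 72 in C.

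Mitochondrially encoded genes held 3.76% of all scaled reads in control and 3.70% in overexpression cortex. The protein genes accounted for 712974 of 715092 mitochondrial scaled reads in control and 685870 of 687948 in overexpression cortex. The 2 ribosomal RNAs summed to 1972 and 1743, and the 22 transfer RNAs to 146 and 335, all of it from mt-Tp, the proline transfer RNA. Of the 10 genes with the highest control means in the whole table, 6 were mitochondrial, and mt-Co1 ranked first of all genes.

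Levels were compared between genes as mean scaled reads per kb of annotated gene length. mt-Co1, which encodes the catalytic subunit of cytochrome c oxidase (complex IV), stood at 204622 per kb in control and 189668 in overexpression cortex. mt-Cytb, the mitochondrially encoded subunit of complex III, followed at 104913 and 102377 per kb. Among the complex I subunits, mt-Nd1 was at 86326 and 86698 per kb, mt-Nd2 at 51409 and 50710, mt-Nd5 at 40417 and 40113 and mt-Nd4 at 39245 and 38890. mt-Nd6, the complex I subunit read from the opposite strand to the other 12 messenger RNAs, was at 23364 and 23916 per kb. The order of these 7 genes by level was the same in control and overexpression cortex, but group means alone do not show which neighbours in it differ beyond the spread between libraries. The strand setting of the authors' counting is not given in the sources used here. Without strand, reads from a gene and from RNA of the other strand cannot be told apart. This bears on mt-Nd6 and mt-Tp, and on the 14 bases that the annotations of mt-Nd6 and mt-Nd5 share.

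The other 6 protein genes lay far lower. mt-Nd3, a complex I subunit, had 1235 scaled reads per kb in control and 1302 in overexpression cortex, and mt-Atp8, a small subunit of ATP synthase, had 1205 and 1357. mt-Co2 and mt-Co3, which with mt-Co1 form the core of complex IV, were at 134 and 81.7 per kb in control and at 116 and 80.5 in overexpression cortex. mt-Atp6, the proton channel subunit of ATP synthase, was at 118 and 94.9. mt-Nd4l, another complex I subunit, had 0 reads in the 3 control libraries and 2 in overexpression libraries (1 in A, 0 in B and 1 in C). Both groups are under the floor of 3 reads over a group, so no fold is given for mt-Nd4l. In control cortex mt-Co1 exceeded mt-Co2 by 1532 times per kb, although both subunits belong to the same complex and the genes are separated only by 2 transfer RNA genes. The 6 genes form an uninterrupted run of the mitochondrial map from mt-Co2 to mt-Nd4l, broken only by transfer RNA genes.

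**Figure D1:**
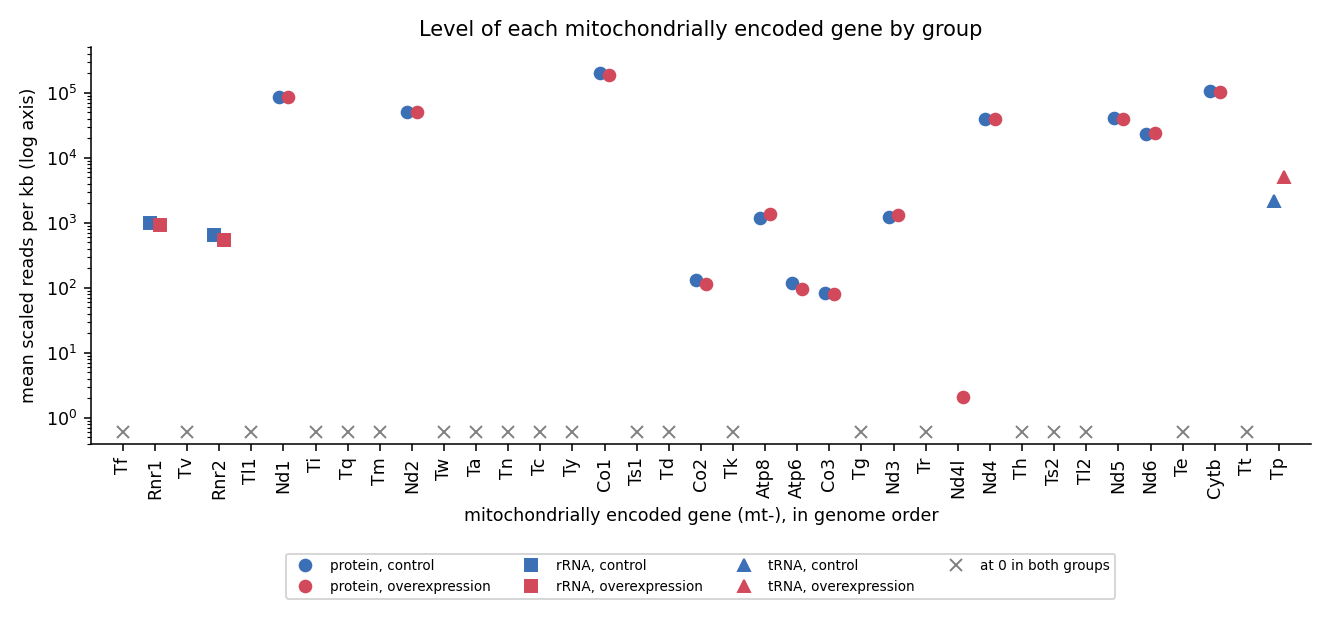
Mean scaled reads per kb (log axis) for the 37 genes in genome order, in control (blue) and overexpression (red) cortex, with circles for protein genes, squares for ribosomal RNAs, triangles for transfer RNAs and crosses for genes at 0 in both groups. The run from mt-Co2 to mt-Nd4l lies below the other 7 protein genes, and 21 transfer RNAs are at 0.

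Annotated nuclear pseudogenes repeat the genes of this run other than mt-Atp8, together with the end of mt-Co1 and the start of mt-Nd4. Nuclear copies of mitochondrial DNA are insertions found in many genomes. In GENCODE M21, on GRCm38, 7 pseudogenes lie in a row on the minus strand of chromosome 1 (chr1:24611535-24616197, a span of 4663 bases), and each matches a mitochondrial gene in the mitochondrial order. Compared base by base without gaps, Gm28661 matched mt-Co2 over 681 of 681 bases, Gm10925 matched mt-Atp6 over 678 of 678 and Gm28437 matched mt-Co3 over 783 of 783. Gm10222 matched mt-Nd4l over 294 of 294 bases and Gm28439 matched the first 876 bases of mt-Nd4 without a difference. Gm28438 matched mt-Nd3 at 344 of 345 bases, with the substitution T3C (the mitochondrial base first, its position counted from 1 at the start of the mitochondrial gene, then the base of the copy). Gm29216 matched bases 1054 to 1545 of mt-Co1 at 486 of 492 bases, and its 6 differences all lie within the first 13 bases of the copy. mt-Atp8 has no annotated copy of its own, but the interval between Gm28661 and Gm10925 is 233 bases long, and so is the matching interval of the mitochondrial genome. That interval holds mt-Atp8 except for the 43 bases it shares with mt-Atp6, which lie in the part matched by Gm10925. Sequences between the pseudogenes were not compared, only their lengths. One interval differed in length, that from Gm28438 to Gm10222, at 74 bases on chromosome 1 against 73 on the mitochondrial genome. The start of each of the 2 pairs with a difference is shown as the annotated sequence, to let the closeness be seen, with differing bases in capitals. The mitochondrial stretches are bases 1 to 60 of mt-Nd3 (chrM:9459-9518, plus strand) and bases 1054 to 1113 of mt-Co1 (chrM:6381-6440, plus strand), and the copies are at chr1:24613060-24613119 and chr1:24616138-24616197, minus strand.
mt-Nd3: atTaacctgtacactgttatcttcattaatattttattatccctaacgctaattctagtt
Gm28438: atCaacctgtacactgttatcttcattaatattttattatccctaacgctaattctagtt
mt-Co1: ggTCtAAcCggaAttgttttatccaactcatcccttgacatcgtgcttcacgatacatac
Gm29216: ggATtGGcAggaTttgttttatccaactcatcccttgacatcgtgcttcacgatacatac

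The share of each gene's 50-base windows that recurs letter for letter in any annotated nuclear transcript, on either strand, was set beside its level. The share was 100% for mt-Co2, 99.9% for mt-Co3, 99.5% for mt-Atp6, 98.8% for mt-Nd4l and 98.0% for mt-Nd3. These 5 genes together had 666 scaled reads in control and 661 in overexpression cortex, which is 0.00350% and 0.00355% of all reads. The share was 62.2% for mt-Nd4 and 51.1% for mt-Co1, and between 0% and 8.19% for mt-Nd2, mt-Nd5, mt-Nd1, mt-Nd6 and mt-Cytb. These 7 genes were the high ones, at 23364 per kb or more in control cortex. mt-Atp8 was low with a share of 0%, and it lies between mt-Co2 and mt-Atp6, with 43 of its bases shared with the latter. With windows of 100 bases the share was between 97.6% and 99.9% for the same 5 genes and 0% for mt-Atp8. Only annotated transcripts were searched, so other nuclear copies are not counted. How the authors treated reads that fit more than 1 place is not given in the sources used here, and the part of shared sequence in these levels was not tested.

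**Figure D2:**
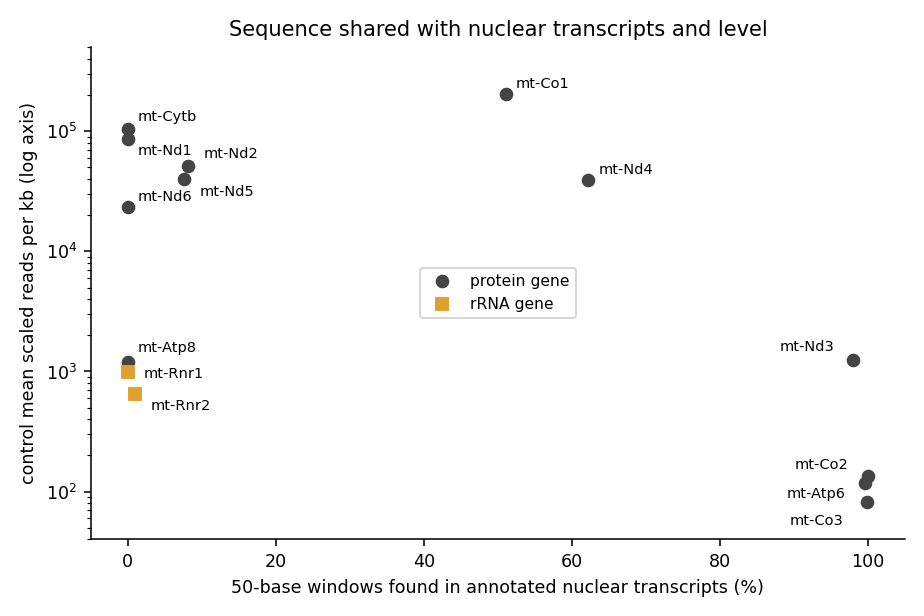
Control mean scaled reads per kb (log axis) against the percentage of 50-base windows found in annotated nuclear transcripts, for protein genes (circles) and ribosomal RNAs (squares) above 0 in control cortex. mt-Co2, mt-Co3, mt-Atp6 and mt-Nd3, with shares of 98.0% or more, lie between 81.7 and 1235 per kb, and the 7 high genes, with shares of 62.2% or less, lie at 23364 or above. mt-Atp8, mt-Rnr1 and mt-Rnr2, with shares of 1.04% or less, are also low, between 650 and 1205 per kb.

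The copies themselves drew few reads outside control A. Over the 7 pseudogenes, control A had 463 reads, control B 35 and control C 51, and overexpression A, B and C had 70, 44 and 54. Gm28661, the copy of mt-Co2, had 324 reads in control A, 0 in B and 4 in C, and 10, 5 and 5 reads in overexpression A, B and C. Gm28439, the copy of the start of mt-Nd4, had 66, 4 and 1 reads in control libraries against 0, 1 and 4. The higher control means of both copies thus came from control A, and without Gm28661 the 7 pseudogenes still had 139 reads in control A against 35 to 60 in the other 5 libraries. mt-Co2 itself did not stand apart in control A, with 100 reads there, 84 in B and 74 in C. Gm29216, the copy of the end of mt-Co1, was spread more evenly, with 54, 27 and 41 reads in control libraries against 48, 28 and 33. These pseudogenes share nearly all their sequence with mitochondrial genes, so their counts are uncertain. Gm10222 was added to the list of copies after the sequence comparison.

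**Figure D3:**
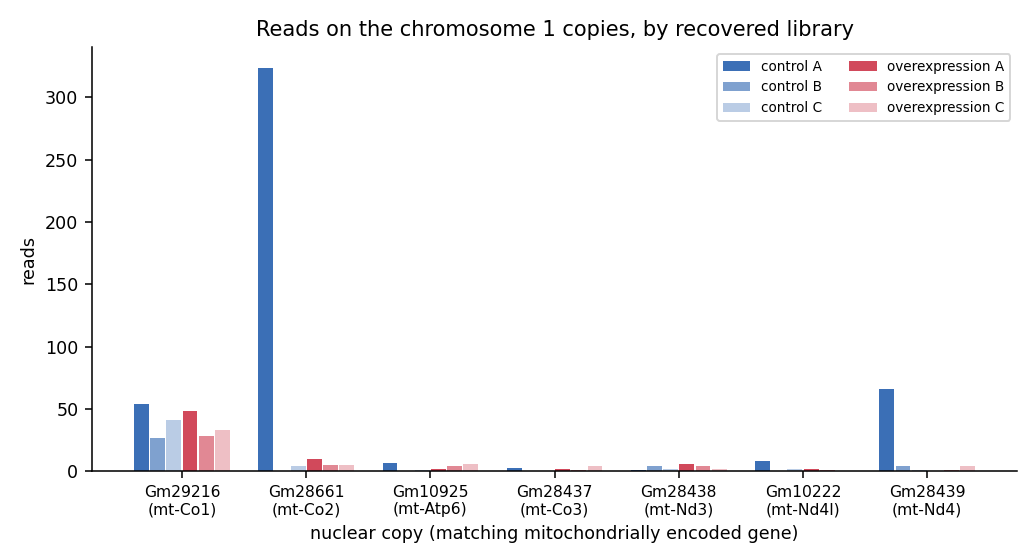
Reads on the 7 chromosome 1 copies (matching mitochondrial gene in brackets) in each recovered library, control in blue and overexpression in red, from dark to light for A, B and C. Control A holds 324 reads of Gm28661 and 66 of Gm28439, where the other libraries hold at most 10 and 4.

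The ribosomal RNAs form the small and large subunit of the mitochondrial ribosome. mt-Rnr1 had a mean of 944 in control and 888 in overexpression cortex, or 988 and 930 per kb. mt-Rnr2 had a mean of 1028 and 855, or 650 and 540 per kb. mt-Co1 exceeded mt-Rnr2 by 315 times per kb in control cortex. Their windows were nearly free of shared sequence, at 0% for mt-Rnr1 and 1.04% for mt-Rnr2, unlike the 5 low protein genes with shares of 98.0% or more. In control libraries A, B and C mt-Rnr1 had recovered values of 1210, 676 and 946 scaled reads (944 ± 267, SD, n = 3). For overexpression cortex 4 combinations of reads within 2-fold of the mean fitted it, with library A anywhere from 451 to 1301, so no library values are given, and the same holds for mt-Rnr2. The control spread of mt-Rnr1 alone was larger than the difference of its group means.

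Of the 22 transfer RNA genes, 21 were listed at 0 in both groups, which allows a group mean of at most 1.10 in control and 1.03 in overexpression cortex (3 reads over the group). The transfer RNA genes are 59 to 75 bases long, and 20 of them have an annotated gene on each side, at most 32 bases away. All 20 were at 0. The exceptions are mt-Tf, the phenylalanine transfer RNA at the start of the mitochondrial numbering, and mt-Tp, the last annotated gene, which flank the noncoding control region of the circle. mt-Tf was at 0 and mt-Tp was the transfer RNA with reads. mt-Tp is read from the same strand as mt-Nd6 and directly abuts mt-Tt, the threonine transfer RNA on the other strand, which was at 0. The 8 transfer RNAs of the mt-Nd6 strand include mt-Tp, and the other 7 were at 0. As the strand setting is not given, reads counted for mt-Tp may include RNA of the other strand. The 3 sequences around the control region are shown because only mt-Tp drew reads, with the anticodon, found by its stem and loop, in capitals, as DNA letters from GENCODE M21. They are at chrM:15356-15422 (minus strand) for mt-Tp, chrM:15289-15355 (plus strand) for mt-Tt and chrM:1-68 (plus strand) for mt-Tf.
mt-Tp: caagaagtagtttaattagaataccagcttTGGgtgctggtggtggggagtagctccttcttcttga
mt-Tt: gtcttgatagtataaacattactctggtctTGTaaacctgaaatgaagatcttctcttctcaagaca
mt-Tf: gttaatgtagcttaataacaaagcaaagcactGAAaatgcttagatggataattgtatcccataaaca

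mt-Tp (ENSMUSG00000064372) was the member with the largest difference between the groups. Its reads were 151, 120 and 140 in control libraries A, B and C and 351, 506 and 234 in overexpression libraries A, B and C. Scaled for depth these were 154, 130 and 154 in control (146 ± 14.1, SD, n = 3) and 286, 476 and 242 in overexpression cortex (335 ± 124, SD, n = 3). Overexpression B was the highest library in this combination of reads. That the groups do not overlap follows from the search for whole reads, which for an overexpression mean above 100 admitted only libraries within 2-fold of it. For mt-Tp this sets a lowest value of 167, above the highest control library, so the separation is no result. The ratio of group means was 2.29, a log2 fold change of 1.20. The authors' deposited table gives mt-Tp p = 0.00723 and an adjusted p of 1. There, 0.534% of tested genes had an unadjusted p under 0.05 (0.328% with overexpression higher), and 0% an adjusted p under 0.05. Fitted by limma to log2 of the value plus 1, over 9787 genes recovered with a mean of 10 or more, the log2 fold change was 1.14 (SE 0.21, 95% interval 0.68 to 1.59) with a Benjamini-Hochberg adjusted p of 0.785. Of the 9787 genes, 0 had an adjusted p under 0.05 and 208, which is 2.13%, an unadjusted p under 0.05. Over all these genes, the groups did not overlap in 4.39% of these genes with overexpression higher, in 2.75% with it lower and in 7.14% in either direction. Of the 11645 genes whose mean reached 100, mt-Tp and Ttr were the 2 whose group means differed by 2-fold or more (0.0172%), and Ttr is named after its values were seen.

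The mt-Tp values depend on 2 choices. With no filter on low values, limma tested 22842 genes and mt-Tp was the 1 gene called, with an adjusted p of 0.0211. This p and the interval above rest on the combination of reads that the limit of 2-fold selects. A second combination of reads, 656, 497 and 2, also fits the overexpression mean and was set aside by that limit alone, since library C would be at 2.07 scaled reads. With it the groups would overlap and the limma log2 fold change would be -0.68, with an adjusted p of 0.999. Overexpression A would then be the highest library, at 535 scaled reads.

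**Figure D4:**
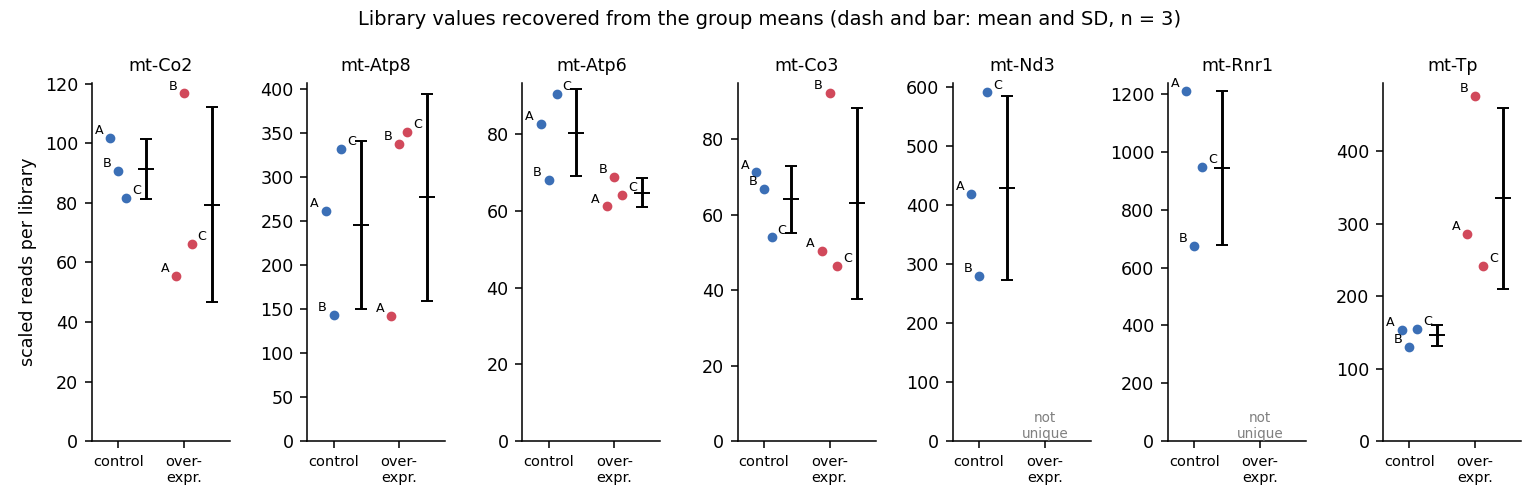
Recovered scaled reads of 7 members in control (blue) and overexpression (red) libraries A, B and C, with the mean and SD of 3 libraries in black and "not unique" where several combinations of reads fitted the group mean. The groups overlap for mt-Co2, mt-Atp8, mt-Atp6 and mt-Co3, and the mt-Tp overexpression libraries, at 242 to 476 against 130 to 154 in control, are kept above control by the 2-fold search limit (a second combination puts library C at 2.07).

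For the high protein genes the 2 groups had nearly equal means, and no spread can be given for them. mt-Co1 had a mean of 316141 in control and 293037 in overexpression cortex, a log2 fold change of -0.11 with p = 0.412 in the authors' deposited table. mt-Cytb was at 120021 and 117120, mt-Nd1 at 82614 and 82970 and mt-Nd5 at 73720 and 73165. mt-Nd4 was at 54079 and 53591, mt-Nd2 at 53362 and 52637 and mt-Nd6 at 12126 and 12413. Apart from mt-Co1, the log2 fold changes of these 7 genes lay between -0.04 and 0.03. The sum over the protein genes had a log2 ratio of -0.06. Of the 12 protein genes above 0 in both groups, 4 had a higher and 8 a lower mean in overexpression cortex, with a median log2 fold change of -0.02, but 8 were higher and 4 lower when each group was divided by its own total. Of all genes whose mean reached 10, 46.8% were higher in overexpression cortex, and the median log2 fold change of genes whose mean reached 100 was -0.02. Of 13 protein genes tested by the authors, 0 had an adjusted p under 0.05 and 0 an unadjusted p under 0.05.

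The spread between libraries of a group differed among the low protein genes. mt-Atp8 had recovered values of 262, 144 and 332 in control A, B and C and 142, 338 and 351 in overexpression A, B and C. The range of control libraries lay within that of overexpression libraries, and its limma log2 fold change of 0.14 (SE 0.34) had an adjusted p of 0.999. mt-Co2 had 102, 90.7 and 81.6 in control and 55.4, 117 and 66.2 in overexpression cortex. mt-Co3 had 71.3, 67.0 and 54.0 in control and 50.5, 92.2 and 46.6 in overexpression cortex. For both of these complex IV genes overexpression B was the highest of the 6 libraries, as it was for mt-Tp in the combination of reads used. Their log2 fold changes were -0.27 (SE 0.25) and -0.08 (SE 0.26), each with an adjusted p of 0.999 in limma. mt-Atp6 had 82.5, 68.0 and 90.4 in control and 61.1, 68.7 and 64.2 in overexpression cortex. Only control B overlapped with the overexpression libraries of mt-Atp6, and the log2 fold change of -0.30 (SE 0.18) had an adjusted p of 0.999 in limma. mt-Nd3 had 418, 280 and 591 in control libraries, and its overexpression mean of 453 was fitted by 504, 376 and 480 and also by 752, 367 and 240, among libraries within 2-fold of it. Control B was the lowest control library for mt-Nd3, mt-Atp8 and mt-Rnr1. Without overexpression A the log2 fold change of mt-Atp8 was 0.57, and without control B it was -0.20. That of mt-Co2 was -0.05 without overexpression A and -0.58 without overexpression B, and that of mt-Co3 was 0.10 without overexpression C and -0.39 without overexpression B.

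**Figure D5:**
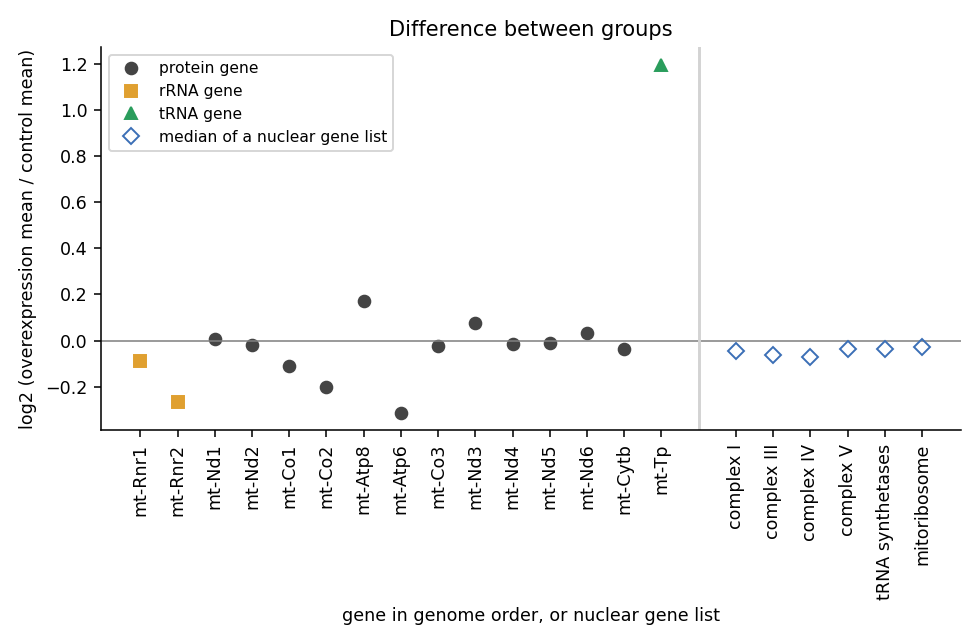
Log2 ratio of the overexpression to the control mean for the 15 mitochondrially encoded genes above 0 in both groups, in genome order, and the median of 6 lists of nuclear genes (open diamonds). mt-Tp is at 1.20, and the other members lie between -0.31 and 0.17.

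Set side by side by class, the sum of mt-Rnr1 and mt-Rnr2 had a log2 ratio of -0.18 and the protein sum -0.06, while the transfer RNA class, which is mt-Tp alone, had 1.20. The class differences were not tested, since group means carry no spread and library values were unique for too few members.

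Nuclear genes that work with these RNAs had group means close to each other, and the authors' deposited table gives 0 of them an adjusted p under 0.05. Of 36 nuclear subunits of complex I, 4 had higher and 32 lower means in overexpression cortex, with a median log2 fold change of -0.04, and Ndufa10, an accessory subunit, was at 2456 in control and 2427 in overexpression cortex. For 9 subunits of complex III the median was -0.06 with 1 higher and 8 lower, and Uqcrc1 was at 3898 and 3600. For 11 subunits of complex IV it was -0.07 with 0 higher and 11 lower, and Cox8a was at 5651 and 5221. For 16 genes of complex V it was -0.04 with 5 higher and 11 lower, and Atp5b, the catalytic β subunit, was at 17188 and 15438. The group totals themselves had a log2 ratio of -0.03, and 46.8% of all genes whose mean reached 10 were higher in overexpression cortex. Direction counts of the nuclear lists were not repeated under other scalings, which changed those of the mitochondrial protein genes.

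The 78 mitochondrial ribosomal protein genes had a median of -0.03, with 28 higher and 49 lower and 1 at 0, and Mrpl3 was at 927 in control and 925 in overexpression cortex. Genes of mitochondrial transcription and DNA maintenance, 17 in all, had a median of 0.01, with 11 higher and 6 lower. Polrmt, the mitochondrial RNA polymerase, was at 587 in each group, and Polg, the DNA polymerase, was at 1097 and 1111. The median was 0.00 for 35 measured genes of RNA processing and stability, to 2 decimals, with 17 higher and 18 lower, and Lrpprc, which stabilises mitochondrial messenger RNAs, was at 1457 and 1484. Pnpt1, a polynucleotide phosphorylase that degrades mitochondrial RNA, named after its values were seen, had a log2 fold change of 0.28 with p = 0.0362 in the authors' deposited table. It was the 1 gene of these lists with an unadjusted p under 0.05 there. Of all tested genes, 0.534% had an unadjusted p under 0.05, so this count is no result about the lists. The 19 genes of mitochondrial aminoacyl-tRNA synthetases had a median of -0.04, with 7 higher and 12 lower, and Gars was at 2487 and 2305. Pars2, the synthetase that charges the proline transfer RNA, had recovered values of 136, 139 and 130 in control libraries, and in the overexpression group 130, 108 and 142, and the groups overlapped. The overexpression mean of Pars2, 127, was above 100, so its overexpression library values come from the search limited to 2-fold of the mean. The 6 regulators of mitochondrial biogenesis had a median of 0.02, with Ppargc1a at 1249 and 1220.

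Markers of cortical cells and of neighbouring tissue differed between the groups beside these values. All 6 markers of cortical excitatory neurons had lower means in overexpression cortex, summing to 109771 and 103479, and among them is Neurod6, the locus that carries Nex-Cre, with a log2 fold change of -0.70. All 3 inhibitory neuron markers were also lower, summing to 9274 and 8555, and all 3 oligodendrocyte markers were higher, summing to 101924 and 109632. Higher means were found for 2 of 4 astrocyte, 3 of 3 microglia, 2 of 3 endothelial and 4 of 5 red blood cell markers. All 4 striatal markers had higher means in overexpression cortex, summing to 1773 in control and 2251 in overexpression cortex, and 4 of 5 choroid plexus markers had lower means, summing to 376 and 203. The choroid plexus sum was 822 in control B, and without that library the control mean was 153, below the overexpression mean. Drd1 and Drd2 were the striatal markers recovered in each library. Drd1 ran from 219 to 353 in control and from 287 to 393 in overexpression libraries, and Drd2 from 51.9 to 124 and from 86.4 to 154. The lowest value of each was in control A, with 292 for Drd1 and 88.6 for Drd2 in control B. Adora2a, recovered in control libraries only, had 108 in A, 267 in B and 287 in C. For these 3 striatal markers control A thus lowered the control mean. Overexpression B, the highest library for mt-Tp in the combination of reads used, was at 296 for Drd1 and 98.8 for Drd2. Both overexpression means were above 100, so these library values also come from the search limited to 2-fold of the mean. The part of tissue makeup in the mitochondrial values was not tested.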

How the data were processed

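RNA-seq libraries were made from Trizol-extracted total RNA with the Illumina TruSeq RNA kit, per the labels' protocols. The submitters' processing notes name TopHat2 2.0.9 and Bowtie2 2.0.6. Not given in the sources used here: read counter, annotation, genome build, strand setting and statistical test. The authors deposited 1 table with 1 signal value per gene and group, the mean of scaled read counts, and a deposited p-value and adjusted p-value per gene. Log2 fold changes were recomputed from the group means. Library depth is unknown beyond the scaling factors, and replicate libraries are not separate columns.

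Members and lists were chosen with earlier results of these data known. Symbols came from the Ensembl IDs. Named genes were all members, 1 or 2 of the 2 genes of highest mean in each nuclear list, the nuclear copies, Pars2, Ctnnb1, Neurod6, markers of cell types, and others marked as chosen after their values were seen.

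As the table holds group values only, the authors' p-values were used. Whole reads of the 3 libraries were sought that give the deposited mean at its 10 significant digits. Every combination was searched up to a mean of 500 in control and 100 in overexpression cortex. Above that, up to 1000 and 450, only libraries within 2-fold of the mean were searched. Exactly 1 of the combinations searched fitted 99.97% of 23575 control means and 99.4% of 21303 overexpression means. Where the 2-fold limit applied, combinations outside it were not counted, so mt-Tp counts as unique although 2 combinations fit its overexpression mean. On means simulated for each group, with libraries that spread little, 100% of unique combinations were right. Because of that small spread, the simulation does not check the 2-fold limit. Log2(value + 1) was analysed with a trended limma fit (version 3.58.1, R 4.3.3), and p-values were adjusted by the Benjamini-Hochberg method over 9787 genes. On simulated reads for that comparison, again with libraries that spread little, it recovered 75% of 200 genes changed 2-fold, of 9787. Of its calls there, 5.06% were false. For genes that spread more between libraries, this share recovered does not apply. Floors cover counting error only, and reads are not separate molecules. The limma intervals cover the spread between recovered libraries. Gene lengths, order and sequences came from GENCODE M21 (GRCm38), matched by Ensembl ID, and need not be the authors' annotation. Alternatives tried were other scalings of the group means, other pseudocounts, filters, search ranges and trend settings, and leaving out each recovered library.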

Additional observations from a re-analysis of the deposited data

How the results depend on the processing

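The protein class sum had a log2 ratio of -0.0241 when each group was divided by its own total, -0.0251 when divided by its total without mitochondrial genes and -0.0384 when centred on genes with a mean of at least 100, against -0.06 as deposited. With the first 2 of these scalings 8 protein genes were higher and 4 lower in overexpression cortex, in place of 4 and 8. Without ribosomal and transfer RNA genes the members held 3.75% of reads in control and 3.69% in overexpression cortex. With no filter on low values limma called 1 gene of 22842, mt-Tp, at a log2 fold change of 1.14 and an adjusted p of 0.0211. Over 10 alternatives its adjusted p ran from 0.0211 to 0.9998. With the second combination of reads, tried after seeing the data, it was -0.68. With each recovered library left out in turn, the log2 fold change of mt-Tp ran from 0.85 to 1.34, of mt-Atp8 from -0.20 to 0.57, of mt-Co3 from -0.39 to 0.10, of mt-Co2 from -0.58 to -0.05 and of mt-Atp6 from -0.41 to -0.21, with 0 genes called. The sign of mt-Atp8 changed without control B, at -0.20, overexpression B, at -0.06, and overexpression C, at -0.08, and that of mt-Co3 without overexpression A, at 0.04, and overexpression C, at 0.10. Each cause was not tested. Only libraries within 1.5-fold of the mean gave mt-Atp8 no value. No paired analysis was possible because the table holds group means and the recovered libraries carry no replicate number. The high protein genes have no library values, so no difference of theirs can be set against a spread.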
